A study of Mus musculus with 2 samples.

Results

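The glycolysis and hypoxia genes described here are 38 genes of the 32285 in the count matrices, chosen by name: the enzymes that turn glucose into pyruvate and lactate, the carriers that bring glucose in and lactate out, and genes known to be switched on when cells run short of oxygen. They take up 39 rows, because Aldoa is listed under 2 gene identifiers, and the row ENSMUSG00000114515 held 0 UMIs in every cell class. The data are 2 replicate libraries of droplet 3′ single-cell RNA-seq. They were made from cells sorted as immune cells from tumours of the mouse colon carcinoma line MC38 at day 21. The labels name no treatment, strain, age or sex, and do not say whether each library came from a separate animal or from pooled tumours. Their files are named with a word that is not the same for both and has no counterpart in the labels, so the libraries may differ by more than replication. Replicate 1 held 5688000 UMIs (unique molecular identifiers, each standing for 1 captured transcript) in 2749 barcodes, and replicate 2 held 5862342 in 2937. No barcode was shared.

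Cells with at least 800 UMIs were placed in classes by the UMIs of lineage genes, none of them a member of the list. Cells without RNA of Ptprc, which encodes the pan-leukocyte surface protein CD45, and of Tyrobp, a signalling adaptor of myeloid and NK cells, are called Ptprc-negative cells below. They also had 0 CD3 UMIs, at most 1 UMI of Laptm5, Coro1a, Cd52 and Fcer1g together and fewer than 3 UMIs of fibroblast and endothelial genes. There were 296 such cells in replicate 1 and 708 in replicate 2, against 754 and 515 C1q macrophages, 35 and 108 CD3 T cells, 57 and 32 dendritic cells and 7 and 17 neutrophils. The median depth of the Ptprc-negative cells was 1789.5 and 2256.5 UMIs, that of the macrophages 1740 and 1371, and that of the T cells 1609 and 1364. Levels are given in CPM, UMIs of a gene scaled to 1000000 UMIs of the class in that library. This puts classes of unlike total on one scale, but cells with more UMIs weigh more in it. In the T cells of replicate 1, 1 UMI was worth 14.8 CPM.

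The working name of the Ptprc-negative cells was tumour-like, but the carcinoma markers did not bear it out. Of the 10 epithelial and carcinoma markers checked, among them Krt8, Krt18, Krt19 and Epcam, 9 were at 0 in replicate 1 and 7 in replicate 2, and their summed level was 2.77 and 1.91 CPM. The cells are therefore named by their gate. Their leading genes over macrophages were Cav1, a coat protein of caveolae, with 121 and 228 CPM against 5.08 and 8.41 CPM, and also Htra1, Nedd4, Cst6, Wwtr1, Cald1, Phgdh and Serpinh1. Summed fibroblast markers were at 366 and 157 CPM. The gate capped these same genes, so this level says little of what the cells are. Summed macrophage markers were at 254 and 108 CPM against 27201 and 13606 CPM in the macrophages. A proliferation gene (Mki67, Top2a, Cdk1, Ccnb1 or Birc5) was detected in 36.8% and 52.3% of Ptprc-negative cells, 24.4% and 23.7% of macrophages and 17.1% and 28.7% of T cells. These shares were counted at the full depth of each cell, which differs between classes and libraries, so depth enters them. The summed level of 5 dissociation stress genes was 129 and 346 CPM in Ptprc-negative cells, 1083 and 2260 CPM in macrophages and 518 and 1861 CPM in T cells. The T cells carried 1317 and 1975 CPM of macrophage markers and the dendritic cells 1324 and 2456 CPM. What part proliferation, stress genes and macrophage RNA have in the differences below was not tested, except where values without proliferating cells are given.

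Glycolysis splits glucose into pyruvate in the cytosol, and lactate dehydrogenase turns pyruvate into lactate, which lets the pathway run without oxygen. Several steps are served by alternative genes (Hk1, Hk2 and Hk3 for hexokinase, Aldoa and Aldoc for aldolase), which cell types use to different extents. In low oxygen the transcription factor subunit HIF-1α, made from Hif1a, escapes the prolyl hydroxylases of the Egln genes. It then binds hypoxia response elements, short DNA motifs with the core ACGTG or GCGTG, at genes such as Vegfa and those of many glycolytic enzymes. Inflammatory signals also raise HIF-1α in macrophages, and T cells raise glycolysis when they are activated.

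Those cores were searched on both strands (the core ACGTG, which reads CACGT on the opposite strand, and the other core, GCGTG, which there reads CACGC) in promoters of 300 bases, from 250 before to 50 after a RefSeq start site, build GRCm38.p6. A CACGTG palindrome counts as 2 matches. Promoters were found for 36 of the 38 members, all but Slc2a3 and Ndrg1, with Ero1l matched as Ero1a. At least 1 core was present in a promoter of 34 of these 36 genes (94.4%), against 46.7% of all genes in the table. Counted per promoter, the shares were 84.0% of 50 and 43.8% of 32851. Most members were picked as known glycolytic or hypoxia genes, and base composition was not matched, so the shares are a description. All 5 matched members that were higher and all 7 that were lower in Ptprc-negative cells in any test below held a core in a promoter, so its presence did not separate them. For Vegfa the 2 matches lay only at an inner start site (chr17:46025114-46025413). The window at the outer start of that gene (chr17:46032328-46032627) held 0. The promoters of the 3 genes that differed in the same direction in all 3 tests are printed here with the cores in capitals. They are Hk3 (chr13:55021336-55021635, minus strand, 1 match), Pfkfb3 (2 start sites, chr2:11502041-11502340 with 4 matches and chr2:11553880-11554179 with 1, minus strand) and Mif (chr10:75860228-75860527, minus strand, 1 match).
Hk3: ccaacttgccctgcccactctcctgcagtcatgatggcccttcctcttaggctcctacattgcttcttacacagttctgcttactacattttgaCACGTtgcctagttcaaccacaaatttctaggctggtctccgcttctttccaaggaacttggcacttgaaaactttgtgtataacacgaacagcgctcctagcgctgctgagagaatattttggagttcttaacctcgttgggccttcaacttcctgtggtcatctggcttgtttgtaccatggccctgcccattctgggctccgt
Pfkfb3, inner start: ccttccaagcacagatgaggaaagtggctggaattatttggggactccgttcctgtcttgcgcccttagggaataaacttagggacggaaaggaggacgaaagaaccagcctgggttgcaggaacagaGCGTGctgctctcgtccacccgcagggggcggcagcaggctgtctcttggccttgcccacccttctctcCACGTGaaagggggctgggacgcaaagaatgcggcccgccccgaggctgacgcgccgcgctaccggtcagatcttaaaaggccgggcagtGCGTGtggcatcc
Pfkfb3, outer start: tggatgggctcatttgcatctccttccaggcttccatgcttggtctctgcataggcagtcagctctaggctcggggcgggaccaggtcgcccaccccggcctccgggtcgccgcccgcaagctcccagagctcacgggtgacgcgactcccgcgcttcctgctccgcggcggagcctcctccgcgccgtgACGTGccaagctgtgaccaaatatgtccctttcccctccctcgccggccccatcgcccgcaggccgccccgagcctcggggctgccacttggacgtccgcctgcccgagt
Mif: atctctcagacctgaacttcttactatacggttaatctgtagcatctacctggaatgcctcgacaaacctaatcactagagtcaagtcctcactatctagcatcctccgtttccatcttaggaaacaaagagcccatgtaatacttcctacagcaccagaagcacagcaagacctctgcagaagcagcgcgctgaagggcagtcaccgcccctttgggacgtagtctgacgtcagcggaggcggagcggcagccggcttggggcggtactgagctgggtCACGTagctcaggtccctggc
Hk3, low in Ptprc-negative cells, and Mif, high in them, thus each hold a single core within this window.

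The whole list made up 0.692% and 0.849% of UMIs in Ptprc-negative cells of replicates 1 and 2, 0.568% and 0.792% in macrophages, 0.463% and 0.841% in T cells, 0.388% and 0.721% in dendritic cells and 0.434% and 0.960% in neutrophils. In replicate 1 the Ptprc-negative share was the highest of the 5 classes, and in replicate 2 that of the few neutrophils was. In every class replicate 2 had the higher share. These shares, like the CPM values, are of library totals, without the scaling between sums (TMM) used in the tests. Its factors were 0.739 and 1.02 in Ptprc-negative cells and 0.902 and 1.08 in macrophages. The order of the libraries can change with it. Gapdh in Ptprc-negative cells had more CPM in replicate 2, but a scaled ratio of replicate 2 over replicate 1 of 0.88. With each cell thinned to 800 UMIs the values were 0.698% and 0.903% in Ptprc-negative cells and 0.553% and 0.803% in macrophages. The 3 hexokinase genes together took 0.00582% and 0.00932% of UMIs in Ptprc-negative cells against 0.0204% and 0.0249% in macrophages, with no overlap. The 5 genes of the lower pathway from Gapdh to Pkm took 0.318% and 0.422% against 0.274% and 0.350%, and those ranges overlap. The 12 other hypoxia genes took 0.226% and 0.205% against 0.0967% and 0.136%, and Mif gave the most UMIs of this group in both classes.

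**Figure D1:**
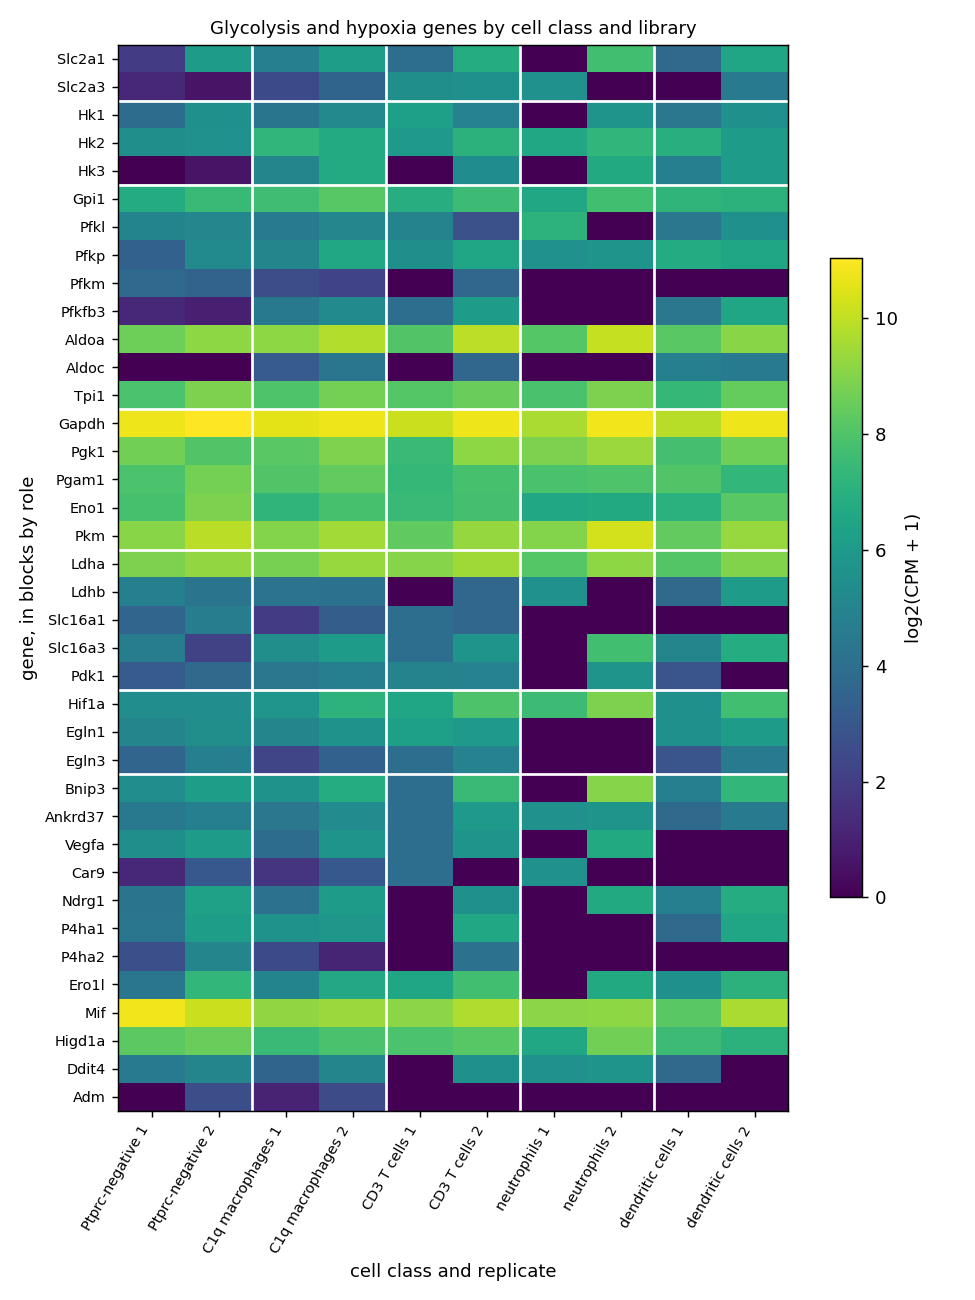
Level of each of the 38 genes as log2(CPM + 1), by color, in each cell class (columns, replicates 1 and 2 side by side) with genes in blocks by role. The rows of Gapdh, Aldoa, Pkm and Ldha are bright in every class, while those of Hk3, Pfkfb3, Slc2a3 and Aldoc are dark in the Ptprc-negative columns, where they reached at most 1.39 CPM.

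Against C1q macrophages, Ptprc-negative cells had almost no RNA of Hk3, Pfkfb3 and Aldoc, less Hk2, Pfkp, Slc2a3 and Slc16a3, and more Mif, Eno1, Egln3 and Higd1a. Of the 33 member rows with enough counts to be tested, 4 were higher, 7 were lower and 22 were neither (edgeR quasi-likelihood test, Benjamini-Hochberg over 6264 genes, threshold 0.05). Over all genes tested 15.0% were higher and 22.1% were lower, so the members' shares were close to this background. The median log2 difference was 0.10 over the members and 0.01 over all genes. The 7 lower genes are all among the 21 glycolysis rows tested, and 3 of the 4 higher genes are among the 12 other hypoxia and oxygen-sensing genes tested. Not tested for low counts were Adm, Car9, P4ha2, Pfkm, Slc16a1 and the Aldoa row without UMIs.

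**Figure D2:**
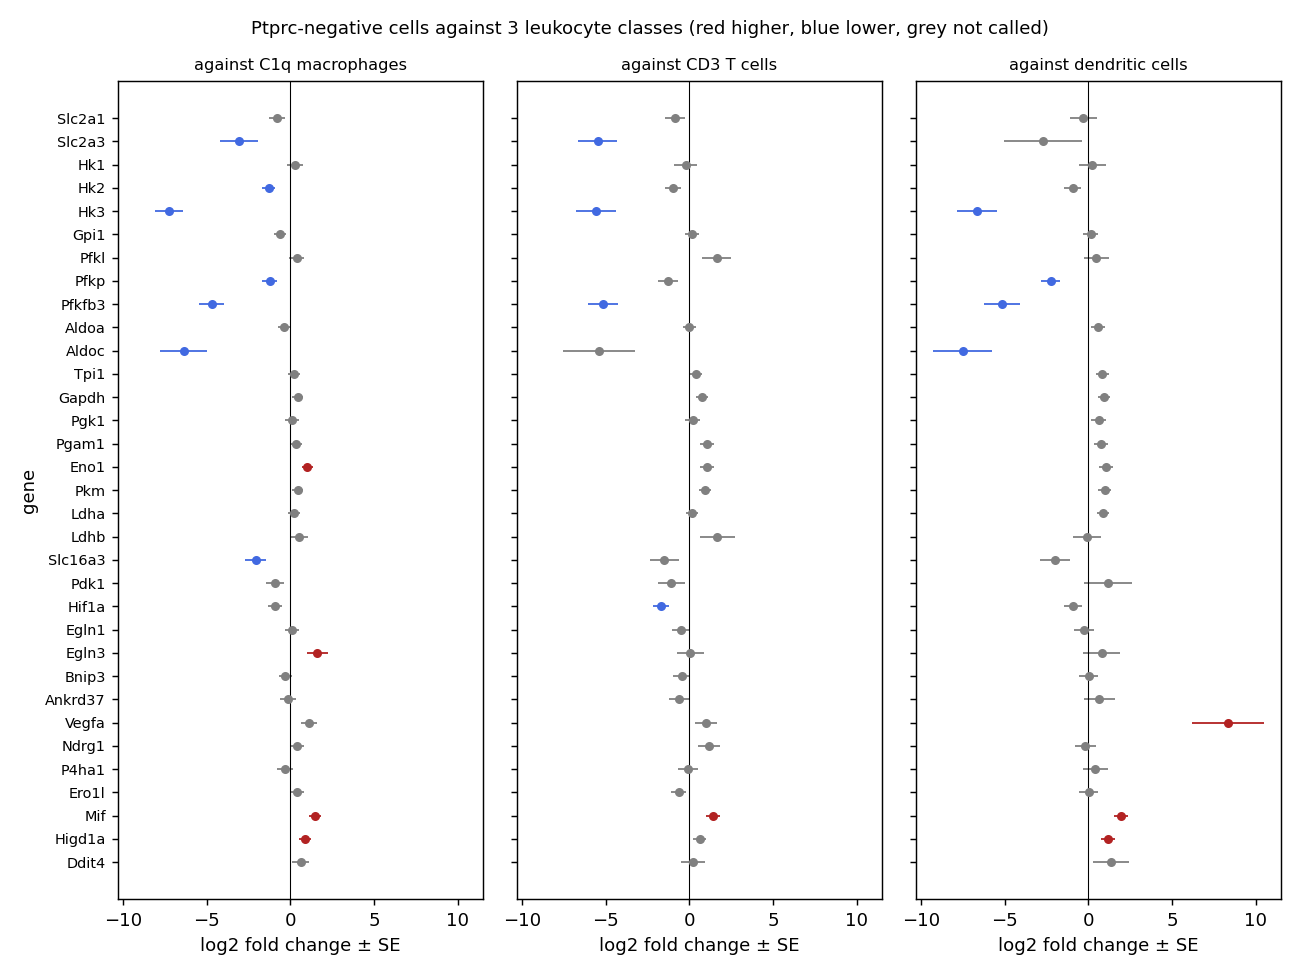
Log2 fold change (horizontal axis, ± SE, edgeR with the library as a block) of each tested gene in Ptprc-negative cells against macrophages, T cells and dendritic cells, with red for higher, blue for lower and grey for neither. Hk3 and Pfkfb3 lie on the lower side and Mif on the higher side in all 3 panels; the Vegfa point against dendritic cells is set against 0 UMIs and is no measure of size.

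Hexokinases carry out the first step, the phosphorylation of glucose. Hk3 (ENSMUSG00000025877, GRCm38 chr13:55005985-55021385), the form best known from myeloid cells, gave 0 UMIs and 1 UMI in the 2 Ptprc-negative sums, 0 and 0.478 CPM, against 31.6 and 107 CPM in macrophages. The macrophage level was 157-fold higher, with a 95% counting interval of 27.7 to 6228 over the summed UMIs of both libraries. The fitted log2 difference was -7.27 ± 0.83 (SE), with adjusted p = 1.01e-08 by edgeR. Where 1 class has so few UMIs a fitted difference depends on the prior count, and the ratio with its interval is the better measure of size. Hk2, the inducible form found on mitochondria, was at 44.4 and 46.8 CPM against 154 and 106 CPM, and both macrophage values lie above both Ptprc-negative values. Its log2 difference was -1.30 ± 0.40, with adjusted p = 0.00981 by edgeR. The housekeeping form Hk1 was at 13.9 and 45.9 CPM against 18.6 and 36.1 CPM, with overlapping groups and no call. Of the hexokinases, Hk1 and Hk2 thus supplied nearly all UMIs in Ptprc-negative cells, whereas Hk3 was the largest of the 3 gaps to macrophages.

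**Figure D3:**
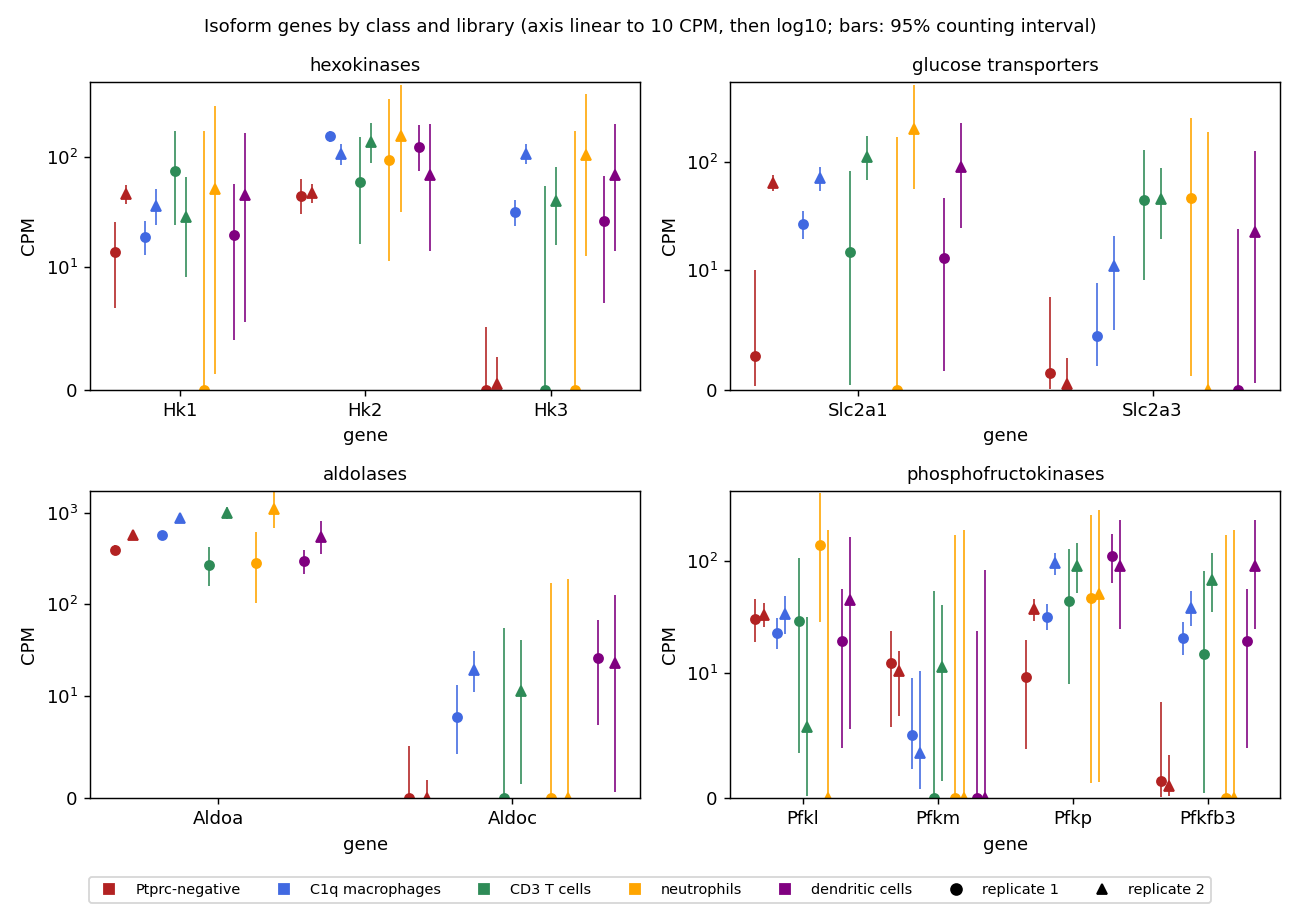
CPM with 95% counting interval (vertical axis, linear to 10 CPM and logarithmic above) of genes that serve the same step, by class (color) and replicate (circle 1, triangle 2). Ptprc-negative cells lie at or below 1.39 CPM for Hk3, Slc2a3, Aldoc and Pfkfb3, and the counting intervals of T cells, neutrophils and dendritic cells are wide.

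Phosphofructokinase is the main control point of the pathway. Pfkfb3 (ENSMUSG00000026773, chr2:11471433-11554077) makes the fructose bisphosphate that switches this enzyme on. It gave 1 and 2 UMIs in Ptprc-negative cells, 1.39 and 0.956 CPM, against 20.9 and 38.5 CPM in macrophages, which is 24.8-fold higher in macrophages (counting interval 8.15 to 123). The log2 difference was -4.71 ± 0.76, with adjusted p = 5.83e-06 by edgeR. Pfkp, the platelet-type phosphofructokinase subunit, was at 9.70 and 37.3 CPM against 32.2 and 96.2 CPM. Its levels overlap between classes, because replicate 2 was higher in both, but in each library the macrophages were above, with a log2 difference of -1.23 ± 0.44 and adjusted p = 0.0286 by edgeR. The liver-type subunit Pfkl had 30.5 and 33.5 CPM against 23.1 and 33.7 CPM and was not called. Pfkm, the muscle type, was too low for the test, with 12.5 and 10.5 CPM against 5.08 and 3.61 CPM.

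Aldolase splits the doubly phosphorylated sugar. Aldoc (chr11:78322968-78327781), the form best known from brain, gave 0 UMIs in both Ptprc-negative sums against 7.90 and 19.2 CPM in macrophages. It was at least 10.8-fold higher in macrophages, set against 3 UMIs over both Ptprc-negative sums, with adjusted p = 0.000359 by edgeR. The main form Aldoa (chr7:126795234-126800751) was at 391 and 571 CPM against 573 and 862 CPM, values that nearly meet, and was not called. Gpi1, which isomerizes glucose phosphate, was at 111 and 175 CPM against 202 and 288 CPM, and Tpi1, triose phosphate isomerase, at 241 and 457 CPM against 257 and 421 CPM. Neither passed the test.

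Glucose enters through Slc2a1 (GLUT1) and the high-affinity carrier Slc2a3 (GLUT3). Slc2a3 gave 1 UMI in each Ptprc-negative sum, 1.39 and 0.478 CPM, against 4.51 and 10.8 CPM in macrophages. The ratio was 9.18 (counting interval 2.18 to 81.9) and the fitted log2 difference -3.07 ± 1.13, with adjusted p = 0.0311 by edgeR. Slc2a1 was at 2.77 and 65.0 CPM in Ptprc-negative cells and 26.5 and 70.9 CPM in macrophages. Its Ptprc-negative values are far apart between the libraries, and it was not called (log2 difference -0.80 ± 0.49).

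In the lower, energy-yielding part of the pathway only Eno1 passed. Eno1, enolase (chr4:150236721-150248879), was at 226 and 462 CPM against 149 and 226 CPM. The groups touch at 226 CPM, but Ptprc-negative cells were above macrophages in each library, with a log2 difference of 1.01 ± 0.35 and adjusted p = 0.0212 by edgeR. Gapdh was at 1753 and 2104 CPM against 1523 and 1739 CPM, a log2 difference of 0.43 ± 0.34 that was not called. Pkm, pyruvate kinase, was at 541 and 962 CPM against 508 and 727 CPM, Pgam1, phosphoglycerate mutase, at 240 and 431 CPM against 264 and 333 CPM, and Pgk1, phosphoglycerate kinase, at 417 and 260 CPM against 298 and 480 CPM. For Pgk1 the classes stood in opposite order in the 2 libraries. Near-identical copies of Gapdh, Eno1, Ldha, Mif and other glycolytic genes exist in the mouse genome, and how shared reads were counted is not given in the sources used here, so the levels of these genes are uncertain to that extent.

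At the end of the pathway, Ldha, the main lactate dehydrogenase subunit, did not separate the classes, at 471 and 608 CPM against 441 and 639 CPM. Slc16a3 (MCT4, chr11:120948480-120960868), the lactate exporter of strongly glycolytic cells, was at 24.9 and 3.35 CPM against 42.9 and 68.5 CPM, with a log2 difference of -2.07 ± 0.62 and adjusted p = 0.00786 by edgeR. The gap came mainly from replicate 2, with log2 differences of -0.51 in replicate 1 alone and -4.26 in replicate 2 alone. Slc16a1 (MCT1), another lactate carrier, was not tested and was at 11.1 and 23.9 CPM against 2.82 and 8.41 CPM. Ldhb was at 26.3 and 18.2 CPM against 17.5 and 16.8 CPM, and Pdk1, the kinase that keeps pyruvate out of mitochondria, at 8.32 and 12.9 CPM against 19.7 and 26.4 CPM. Neither was called.

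Among the oxygen-sensing genes, Hif1a was at 41.6 and 41.1 CPM in Ptprc-negative cells and 52.5 and 142 CPM in macrophages. Both macrophage values were above, but the difference was not called (log2 -0.91 ± 0.42, adjusted p = 0.0907 by edgeR). Egln3 (chr12:54178981-54203860), a prolyl hydroxylase that marks HIF-1α for degradation and is itself a HIF target, was at 11.1 and 25.8 CPM against 3.95 and 9.62 CPM. Its log2 difference was 1.60 ± 0.63, with adjusted p = 0.0433 by edgeR, on 62 and 15 summed UMIs. Egln1, the main oxygen sensor of this family, was at 31.9 and 43.5 CPM against 32.7 and 48.1 CPM.

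Mif (chr10:75859353-75860240), a cytokine with tautomerase activity, showed the clearest excess, at 1763 and 1149 CPM in Ptprc-negative cells against 594 and 659 CPM in macrophages. Every Ptprc-negative value was above every macrophage value, with a log2 difference of 1.45 ± 0.38 and adjusted p = 0.00236 by edgeR. The difference was 1.84 in replicate 1 alone and 0.84 in replicate 2 alone. Higd1a, a hypoxia-induced protein of the mitochondrial inner membrane, was at 302 and 361 CPM against 175 and 233 CPM, again without overlap, with a log2 difference of 0.89 ± 0.36 and adjusted p = 0.0498 by edgeR. Vegfa, the vessel growth factor, was at 44.4 and 65.5 CPM against 14.1 and 51.7 CPM and missed the threshold (log2 1.11 ± 0.46, adjusted p = 0.0547 by edgeR). The Vegfa difference was 1.91 in replicate 1 alone and 0.38 in replicate 2 alone, and it was called in 5 alternatives, with adjusted p from 0.00349 to 0.0494 by edgeR. None of the following 6 hypoxia genes was called, and their levels overlapped between the classes. Bnip3, a mitophagy receptor, was at 41.6 and 72.2 CPM against 50.2 and 112 CPM. Ankrd37 was at 20.8 and 26.3 CPM against 19.7 and 39.7 CPM, Ndrg1 at 18.02 and 77.9 CPM against 16.4 and 64.9 CPM, and Ero1l, an oxidase of protein folding, at 19.4 and 159 CPM against 30.5 and 99.8 CPM. P4ha1, a collagen prolyl hydroxylase subunit, was at 19.4 and 68.8 CPM against 47.9 and 56.5 CPM, and Ddit4, an inhibitor of mTOR signalling, at 22.2 and 31.1 CPM against 10.7 and 31.2 CPM. Of the hypoxia genes, 3 were too low to be tested. Car9, a carbonic anhydrase much used as a hypoxia marker, was at 1.39 and 7.17 CPM against 2.26 and 7.21 CPM, Adm, adrenomedullin, at 0 and 5.26 CPM against 1.13 and 4.81 CPM, and P4ha2 at 5.54 and 31.5 CPM against 4.51 and 1.20 CPM.

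Hk3, Pfkfb3, Aldoc and Mif kept their calls against macrophages in each alternative in which they were tested. Their sizes depended on the gate. The looser Ptprc-negative gate asked only for 0 Ptprc and Tyrobp UMIs and held 695 and 962 cells. With it the log2 differences were -4.90 for Hk3, -3.20 for Pfkfb3, -3.59 for Aldoc and 1.29 for Mif. In the main fit they were -7.27, -4.71, -6.39 and 1.45. Without proliferating Ptprc-negative cells 7 members were called rather than 11. Hk2, Pfkp and Slc2a3 were not called there (log2 differences of -0.95, -0.91 and -2.57), Aldoc and Egln3 had too few counts to be tested, and Vegfa was called (1.59). Without the library as a block only those 4 genes were called, so that Eno1, Higd1a, Hk2, Pfkp, Slc2a3, Slc16a3 and Egln3 lost their calls. DESeq2 lost Egln3, Pfkp, Slc16a3 and Slc2a3. With no filter on low counts, and with a looser Ptprc-negative gate, Eno1 and Higd1a were not called.

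Against CD3 T cells, Ptprc-negative cells had less Slc2a3, Pfkfb3, Hk3 and Hif1a and more Mif. Thus 1 member of 33 was higher, 4 were lower and 28 were neither, against 7.02% of all genes higher and 12.7% lower, shares that lie at or above those of the members. The median log2 difference was 0.00 over the members and 0.10 over all genes. The split of calls over all genes was 440 higher and 795 lower, and 282 and 905 when the sums were scaled by library totals alone.

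Slc2a3 was at 1.39 and 0.478 CPM against 44.4 and 45.4 CPM in T cells. T cells were 63.5-fold higher by summed UMIs (counting interval 13.9 to 589), and the log2 difference was -5.48 ± 1.18 with adjusted p = 0.00068 by edgeR. Pfkfb3 was at 14.8 and 68.1 CPM in T cells, a ratio to Ptprc-negative cells with a counting interval of 13.7 to 274, with a log2 difference of -5.16 ± 0.92 and adjusted p = 5.81e-05 by edgeR. The T cell values rest on 11 UMIs of Slc2a3 and 13 of Pfkfb3. Hif1a was at 88.8 and 250 CPM in T cells against 41.6 and 41.1 CPM, without overlap, with a log2 difference of -1.69 ± 0.49 and adjusted p = 0.0116 by edgeR. The Hif1a gap was -0.75 in replicate 1 alone and -2.52 in replicate 2 alone, and its call was lost with DESeq2 (adjusted p = 0.0537) and without the library as a block (adjusted p = 0.0749 by edgeR). Mif was at 562 and 834 CPM in T cells, below both Ptprc-negative values, with a log2 difference of 1.40 ± 0.39 and adjusted p = 0.00929 by edgeR. The Mif difference was 1.99 in replicate 1 alone and 0.54 in replicate 2 alone, and its call was lost without the library as a block (adjusted p = 0.0685 by edgeR). Hk3 was called lower (adjusted p = 0.000526 by edgeR), but it was at 0 UMIs in both classes of replicate 1, and the call rests on 7 UMIs in the T cells of replicate 2, which also carried macrophage RNA.

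The enzymes of the main chain gave no call against T cells. Gapdh was at 1139 and 1725 CPM in T cells, Eno1 at 178 and 221 CPM, Pkm at 326 and 624 CPM, Pgam1 at 163 and 227 CPM, Aldoa at 266 and 982 CPM and Ldha at 518 and 698 CPM. Eno1 (log2 1.05 ± 0.40, adjusted p = 0.0587 by edgeR) and Pkm (log2 0.94 ± 0.37, adjusted p = 0.0661 by edgeR) came nearest to the threshold. On simulated counts the test recovered 4% of 2-fold and 61% of 4-fold changes in this comparison, where replicate 1 gave 35 T cells. The changed genes were drawn from all levels above a low limit. These shares thus do not give the power for abundant enzymes such as Gapdh.

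Against dendritic cells Hk3, Pfkfb3, Aldoc and Pfkp were lower and Mif, Higd1a and Vegfa higher, which is 3 members of 33 higher, 4 lower and 26 neither. Over all genes 7.61% were higher and 12.3% lower, close to the shares of the members, and the median log2 difference was 0.40 over the members and 0.22 over all genes. Dendritic cells, which take up and present antigen, were at 26.1 and 68.2 CPM of Hk3 and 19.6 and 90.9 CPM of Pfkfb3, on 7 UMIs each. The ratios to Ptprc-negative cells were 99.8 (counting interval 12.8 to 4499) and 33.3 (7.60 to 199), with adjusted p = 6.78e-05 and 0.000591 by edgeR. Aldoc gave 26.1 and 22.7 CPM on 5 UMIs, at least 23.8-fold higher than in Ptprc-negative cells, with adjusted p = 0.00211 by edgeR. Pfkp was at 111 and 90.9 CPM, above both Ptprc-negative values, with a log2 difference of -2.25 ± 0.57 and adjusted p = 0.00415 by edgeR. The Pfkp difference was -3.37 in replicate 1 alone and -0.84 in replicate 2 alone, and its call was lost without the library as a block (adjusted p = 0.0802 by edgeR) and with cells thinned to 800 UMIs (adjusted p = 0.107 by edgeR). Mif was at 300.1 and 796 CPM in dendritic cells, with a log2 difference of 1.95 ± 0.41 and adjusted p = 0.000593 by edgeR, and it was 2.68 in replicate 1 alone and 0.97 in replicate 2 alone. Higd1a was at 189 and 136 CPM, with a log2 difference of 1.17 ± 0.42 and adjusted p = 0.0481 by edgeR, a call kept in only 2 of its 10 alternatives, and the difference was 0.80 in replicate 1 alone and 1.84 in replicate 2 alone. Vegfa gave 0 UMIs in both dendritic sums, so that Ptprc-negative cells were at least 3.95-fold higher, set against 3 UMIs over both sums, with adjusted p = 0.00451 by edgeR.

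Over the 3 tests, which share the Ptprc-negative sums, 25 of the 38 genes were never called. Hk3 and Pfkfb3 were lower in all 3 and Mif was higher in all 3. Aldoc, Pfkp and Slc2a3 were lower in 2, Higd1a was higher in 2, and Hk2, Slc16a3 and Hif1a (lower) and Eno1, Egln3 and Vegfa (higher) were called once. Whether a gene's difference from macrophages and its difference from T cells were themselves unequal was not tested.

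The neutrophil gate held 7 and 17 cells, too few for a test, and their sums of 21422 and 19384 UMIs made 1 UMI worth 46.7 and 51.6 CPM. Hif1a was at 187 and 464 CPM there on 4 and 9 UMIs, Gapdh at 794 and 1806 CPM on 17 and 35 UMIs, and Mif at 560 and 567 CPM on 12 and 11 UMIs. Pfkfb3, Aldoc, Egln1 and Egln3 were at 0 in both neutrophil sums, where 0 UMIs allow up to 140 and 155 CPM.

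The 46 other genes of these pathways on a list fixed with the tests gave 24 tested rows. Against macrophages 2 were higher and 3 lower, where 15.0% and 22.1% of all genes were. Against T cells 1 was higher and 1 lower, where 7.02% and 12.7% of all genes were, and against dendritic cells 2 and 2, where 7.61% and 12.3% were. The shares of this list thus lie near or below those of all genes. Plod2, a collagen lysyl hydroxylase induced by hypoxia, was at 43.0 and 104 CPM in Ptprc-negative cells against 2.26 and 3.61 CPM in macrophages, with a log2 difference of 4.68 ± 0.58 and adjusted p = 5.95e-08 by edgeR. It was higher against T cells (29.6 and 22.7 CPM) and dendritic cells (6.52 and 0 CPM) too. Fam162a, a hypoxia-induced mitochondrial protein, was at 287 and 206 CPM against 91.4 and 102 CPM in macrophages, with a log2 difference of 1.55 ± 0.38 and adjusted p = 0.00131 by edgeR, and was also higher than in dendritic cells. Pfkfb4, of the same enzyme family as Pfkfb3, was at 1.39 and 2.87 CPM against 19.2 and 22.8 CPM in macrophages (log2 -3.02 ± 0.77, adjusted p = 0.00212 by edgeR). Bhlhe40, a transcription repressor, was at 13.9 and 19.6 CPM against 28.2 and 64.9 CPM in macrophages and was lower in all 3 tests. Taldo1, transaldolase of the pentose phosphate pathway, was at 85.9 and 163 CPM against 277 and 350 CPM in macrophages (log2 -1.17 ± 0.36, adjusted p = 0.00963 by edgeR).

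Single members differed in level between the 2 libraries. The 15 hypoxia members together took 0.234% and 0.217% of UMIs in Ptprc-negative cells and 0.106% and 0.156% in macrophages. Mif alone gave 1272 of the 1690 and 2404 of the 4530 UMIs of this group in Ptprc-negative cells. In macrophages it gave 1053 of 1872 and 548 of 1298. These sums thus largely reflect Mif and do not describe the other hypoxia members. With levels scaled between libraries, 7 of the 32 members with at least 20 UMIs were 2-fold or more higher in replicate 2 in Ptprc-negative cells (Ero1l, Hk1, Ndrg1, P4ha1, P4ha2, Pfkp and Slc2a1) and 3 were 2-fold or more lower (Mif, Pgk1 and Slc16a3). Over all genes of that class 18.6% were higher and 10.9% lower, so these shares lie near the background. In macrophages 9 of 31 members were higher (Aldoc, Ddit4, Ero1l, Hif1a, Hk3, Ndrg1, Pfkp, Slc2a1 and Vegfa) and 0 lower, against 6.41% and 6.59% of all genes. The median ratio of replicate 2 over replicate 1 in macrophages was 1.34 over the members and 0.985 over all genes, and in Ptprc-negative cells 1.11 and 1.06. With 1 sum per class and library there is no test, and the intervals that follow cover counting error only.

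Slc2a1 had 2 UMIs in the Ptprc-negative cells of replicate 1 and 136 in replicate 2, a ratio of 17.2 (counting interval 4.67 to 143), and a ratio of 2.25 (1.51 to 3.37) in macrophages. Ero1l had ratios of 6.01 (3.53 to 11.1) and 2.75 (1.93 to 3.95), Ndrg1 of 3.17 (1.80 to 6.08) and 3.33 (2.08 to 5.43), and Pfkp of 2.82 (1.30 to 7.23) and 2.51 (1.77 to 3.59). These 4 genes were thus higher in replicate 2 in both classes. Hif1a was higher in replicate 2 in macrophages (2.27, 1.72 to 3.01), with a ratio of 0.72 (0.47 to 1.14) in Ptprc-negative cells. Pgk1 was lower in replicate 2 in Ptprc-negative cells (0.46, 0.40 to 0.53), with a ratio of 1.35 (1.18 to 1.54) in macrophages. Slc16a3 was at 0.10 (0.03 to 0.25) in Ptprc-negative cells and 1.34 (0.93 to 1.92) in macrophages. Whether these ratios differ between classes was not tested. Macrophages held 925 Xist and 0 Y-linked UMIs in replicate 1 and 0 and 82 in replicate 2. Ptprc-negative cells held 6 and 0 in replicate 1 and 0 and 71 in replicate 2. In replicate 1 those 6 were among 721446 UMIs, and the 925 of macrophages among 1772895. The Ptprc-negative cells of replicate 1 thus had little Xist and no Y-linked RNA, for a reason that was not tested. In replicate 2 the 71 Y-linked UMIs were among 2092008 UMIs, and the 82 of macrophages among 832007. Y-linked RNA was thus present in the Ptprc-negative cells of replicate 2 but not of replicate 1. Whether the gate held the same kind of cell in both libraries was not tested. Sex, animal and handling of a library cannot be told apart. Stress genes were also higher in replicate 2, by the values above. So was the share of Ptprc-negative cells with a proliferation gene, where the greater depth of these cells in replicate 2 also enters. Their part was not tested.

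**Figure D4:**
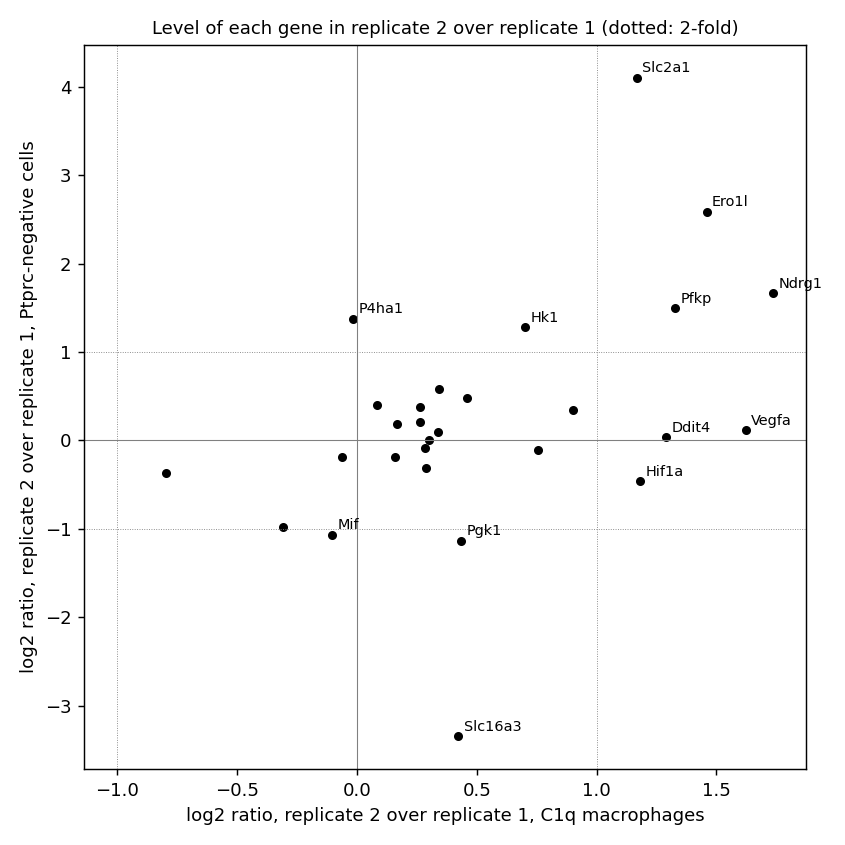
Log2 ratio of replicate 2 over replicate 1 for each gene with at least 20 UMIs in both classes, in macrophages (horizontal axis) and Ptprc-negative cells (vertical axis), with dotted lines at 2-fold and names for genes past 2-fold in either class. Slc2a1, Ero1l, Ndrg1 and Pfkp lie past 2-fold in both classes, and Slc16a3, at a ratio of 0.10, lies lowest in Ptprc-negative cells.

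As a share of cells, counted after each cell was thinned to 800 UMIs, Hk3 was detected in 0% of the 296 and 0% of the 708 Ptprc-negative cells, which allows shares of up to 1.01% and 0.424% with a UMI, and in 3.32% and 8.74% of macrophages. Mif was detected in 67.6% and 58.8% of Ptprc-negative cells, 35.0% and 37.7% of macrophages and 22.9% and 55.6% of T cells. Without thinning the Mif shares were 89.5% and 87.0% in Ptprc-negative cells and 56.6% and 59.4% in macrophages. Gapdh was detected in 74.3% and 77.0% of Ptprc-negative cells and 64.6% and 69.7% of macrophages after thinning. As a measure of free RNA, C1qa, a macrophage gene, was detected in 3.72% and 2.82% of Ptprc-negative cells after thinning and 8.45% and 5.79% without it. The median depths are those given above. The Mif and Gapdh shares lie above that level, and those of Hk3 and Pfkfb3 (0% and 0.141%) below it. In macrophages C1qa was at 3889 and 3115 CPM, far above Hk3 and Pfkfb3 there. For these 2 genes a share below that of C1qa thus cannot tell expression from free RNA.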

How the data were processed

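The deposited matrices hold raw UMI counts per gene and barcode, not normalized, written by Cell Ranger (version 6.0.1) per the file headers. The submitters' processing notes also name Seurat 4.0.1 and the build mm10; the gene annotation and the handling of multiply mapped reads are not named by any source used here. Barcodes were kept with at least 300 genes, under 10% mitochondrial UMIs and at least 800 UMIs. Scrublet, run per library in scanpy 1.11.5, called 10 and 36 doublets (0.419% and 1.27% of barcodes with enough genes, 0.880% over both), which were left out. This left 1948 and 2357 cells, of which 799 and 976 fell in no gate and 0 and 1 in more than 1. T cells needed at least 2 CD3 UMIs and at most 4 C1q UMIs, macrophages at least 5 C1q UMIs. The dendritic gate was relaxed to 1 marker UMI and the neutrophil gate to no further marker because too few cells passed, and the neutrophils still had under 20 cells, so the planned tests with them were not made.

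Counts were summed per library and class. The 8 sums of the 4 larger classes went into 1 quasi-likelihood model of edgeR 4.0.16 (R 4.3.3), after filterByExpr and with TMM scaling, in which the library is a block because each library yielded all classes, which leaves 3 residual degrees of freedom. The labels do not say whether the libraries are separate animals. Macrophages held 925 Xist and 0 Y-linked UMIs in replicate 1 and 0 and 82 in replicate 2, so they came from different animals. How many animals each library holds is not known, and sex and library coincide. The p-values therefore cover only class differences within these 2 libraries. The spread of a gene was mostly borrowed from all genes tested, by a median of 30.61 prior degrees of freedom against those 3. A gene whose difference varied widely between the libraries, such as Slc16a3, could therefore still be called. Median differences are the same with genes at 0 UMIs set to their bounds, because these stay on the same side. On simulated counts over 5091 genes the macrophage comparison recovered 16% of 2-fold and 92% of 4-fold changes, with 0.917% of calls false, and the dendritic comparison 5% and 53%, with 4.92% false. The simulation held no library differences, and its spread between sums (dispersion) was set to 0.05, against 0.0634 in the fit of the data. Counting intervals are exact at 95% (Poisson for levels and ratios of UMIs, Clopper-Pearson for shares) and cover counting error only. A floor of 3 UMIs was used where a class had 0.

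The members and lists were chosen with earlier results of these data known. Values are given for all 38 genes, with full statistics for up to 6 called genes per direction and test that had the largest difference and the same direction in both libraries; the other called genes are named as well. Alternatives were RLE scaling, library totals, DESeq2 1.42.0, no filter, no block, cells thinned to 800 UMIs, a minimum of 500 UMIs, other gates, no proliferating Ptprc-negative cells, and each library alone.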

Additional observations from a re-analysis of the deposited data

How the results depend on the processing

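Of 23 calls of a member, 12 were kept in every alternative in which they were tested and 0 changed direction. The library numbers pair the classes by construction, and without the replicate block the member calls went from 11 to 4 against macrophages and from 5 to 3 against T cells, and from 7 to 5 against dendritic cells. Calls over all genes went from 2319 to 1545, from 1235 to 757 and from 1250 to 789. With cells thinned to 800 UMIs they were 1192, 767 and 720, from fewer counts. Against macrophages, 7 members were called by DESeq2 and 7 without proliferating Ptprc-negative cells. Against T cells, 8 members were called without those cells, and with no C1q limit in the T cell gate 10 members and 2561 genes; the cause was not tested. Library totals in place of TMM moved the median log2 difference of all genes from 0.01 to -0.17 (macrophages), 0.10 to -0.14 (T cells) and 0.22 to -0.03 (dendritic cells). Against macrophages 4 values that were not called changed sign: Slc2a1 to 0.10 without proliferating cells, Pgk1 to -0.10 with library totals, and without replicate 1 Ldha to -0.037 and Pgk1 to -0.85; the cause was not tested. Leaving out a library leaves 1 sum per class and no test, and the values without replicate 2 were 0.36 for Ldha and 0.75 for Pgk1. The largest adjusted p over the edgeR and DESeq2 alternatives was 0.0349 for Mif and 0.000197 for Hk3 against macrophages, 0.119 for Egln3 and 0.170 for Higd1a. No alternative was run for neutrophils, which had too few cells. Depth limits genes under about 15 CPM in T cells, where 1 UMI of replicate 1 is 14.8 CPM.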

Other observations

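In the Ptprc-negative cells of replicate 2, some members had higher levels in cells that held a UMI of certain other hypoxia genes. They were the hypoxia genes Bnip3, Ero1l, Ndrg1, P4ha2 and Higd1a and the glycolysis genes Pgam1, Tpi1, Aldoa and Gapdh. Hif1a, Egln1, Mif, P4ha1 and Ddit4 did not differ beyond counting error. The split was made for this description after values were seen and was not planned: cells thinned to 800 UMIs were divided by whether they had a UMI of Ankrd37, Egln3, Car9, Adm or Vegfa, with 61 cells with and 647 without in replicate 2 and 20 and 276 in replicate 1. In replicate 2 the cells with such a UMI had 348 CPM of Bnip3 against 81.1 CPM, a ratio of 4.29 (95% counting interval 2.29 to 7.70). Ero1l had 656 against 166 CPM, a ratio of 3.95 (2.54 to 5.99), and Ndrg1 430 against 86.9 CPM, a ratio of 4.95 (2.80 to 8.48). Pgam1 had a ratio of 2.31 (1.63 to 3.20) and P4ha2 of 3.98 (1.27 to 10.7). Higd1a had a ratio of 1.60 (1.04 to 2.38). The ratio was 2.65 (0.78 to 7.28) for Ddit4, 1.56 (0.48 to 4.01) for P4ha1, 1.21 (0.93 to 1.55) for Mif and 1.14 (0.22 to 3.68) for Egln1, and Hif1a had 0 UMIs in the marked cells against 22 in the rest. Among the glycolysis genes, Tpi1 had a ratio of 1.57 (1.05 to 2.29), Aldoa of 1.41 (1.005 to 1.94) and Gapdh of 1.22 (1.004 to 1.48). The last 2 intervals barely leave out 1. Ldha had a ratio of 1.09 (0.74 to 1.56) and Pkm of 1.03 (0.76 to 1.37). In replicate 1 the 20 cells held 0 UMIs of Bnip3, Ero1l and P4ha2 and 1 of Ndrg1, too few to show such a difference. For the more abundant genes the ratio there was 0.98 (0.65 to 1.42) for Gapdh and 1.21 (0.51 to 2.49) for Aldoa. It was 1.88 (0.66 to 4.43) for Tpi1 and 1.51 (0.63 to 3.14) for Higd1a. Pgam1, on 1 UMI in the 20 cells, had 0.35 (0.0087 to 2.09), an interval below the 2.31 of replicate 2. All of these intervals include 1. The intervals treat UMIs as independent, the cells of a library share their tumour, and no test over libraries can be made. Only members were compared in this way, and the intervals are not adjusted for their number. How many of all genes would differ between these cells is not known, so the ratios are a description.

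Across the 10 sums of class and library, the members most alike in level were Hk1 and Ero1l (Pearson r = 0.94 of log2(CPM + 1)), Bnip3 and Slc2a1 (0.91) and Slc2a1 and Ero1l (0.89), among 30 members that reached 50 CPM in a sum. The 10 points share 2 libraries, and the neutrophil sums hold few UMIs, so these values are a description.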
